A study of Mus musculus with 9 samples.

Results

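The 4 eIF2 kinases (Eif2ak1, Eif2ak2, Eif2ak3 and Eif2ak4) and 6 genes of the Atf4 and Ddit3 branch that acts after them (Atf4, Atf5, Ddit3, Trib3, Chac1 and Ppp1r15a) were followed in mouse yolk sac that had lost 1 or both copies of Rnh1. Members were taken by gene symbol, from probe sets that name that gene alone. They were chosen with earlier results of these data known. Each of the 10 members had 1 such probe set, out of 19933 genes with a probe set, and all 10 were bright enough to be among the 13207 genes tested. The samples were yolk sacs of embryonic day 9.5 on a mixed SV 129/C57BL/6 background, untreated: 3 wild type (WT, Rnh1 +/+), 3 heterozygous (HET, Rnh1 +/-) and 3 homozygous knockout (KO, Rnh1 -/-), with 1 Affymetrix whole-transcript gene array per sample. The protein made from Rnh1 is the ribonuclease inhibitor of the cytosol, a tight binder of secreted-type ribonucleases. The question put to these genes was whether the transcripts of a translation stress response were raised when Rnh1 was lost. The array measures RNA only, so phosphorylation of eIF2 and translation itself were not measured.

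Cells slow translation under stress by phosphorylating the initiation factor eIF2, and each of the 4 kinases answers to a different signal: Eif2ak1 (HRI) to lack of heme and to mitochondrial stress, Eif2ak2 (PKR) to double-stranded RNA, Eif2ak3 (PERK) to unfolded protein in the endoplasmic reticulum, and Eif2ak4 (GCN2) to uncharged tRNA and stalled ribosomes. While most translation falls, the mRNAs of the transcription factors Atf4, Atf5 and Ddit3 (CHOP) are translated better through upstream reading frames, and Atf4 then raises the transcription of genes for amino acid supply, tRNA charging and feedback. Among these, Trib3 encodes a pseudokinase that restrains Atf4, Chac1 an enzyme that degrades glutathione, and Ppp1r15a (GADD34) the phosphatase subunit that removes the phosphate from eIF2. The yolk sac at this stage holds visceral endoderm, which secretes much protein, and the primitive red cells, where Eif2ak1 matches globin synthesis to heme.

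The promoters of 4 members are shown. In the tests below Ddit3 and Eif2ak3 passed against both WT and HET, and Ppp1r15a against HET alone. Chac1 holds the element through which Atf4 is known to act. Atf5, which also passed against both, is not shown. All 10 members matched the RefSeq promoter windows (GRCm38.p6), with 12 windows in all, since 2 members (Eif2ak4 and Atf5) had 2. The 250 bases before each start were searched on both strands for TGATGCAA (the C/EBP-ATF composite element), TGACGTCA (the cAMP response element) and CCAAT (the CCAAT box), none of which overlap in these windows. The sequences run 5′ to 3′ on the gene's strand, with the matches in capitals, at chr2:119350992-119351241 (Chac1, plus strand), chr7:45526269-45526518 (Ppp1r15a, minus strand), chr10:127290543-127290792 (Ddit3, plus strand) and chr6:70844265-70844514 (Eif2ak3, plus strand):
Chac1: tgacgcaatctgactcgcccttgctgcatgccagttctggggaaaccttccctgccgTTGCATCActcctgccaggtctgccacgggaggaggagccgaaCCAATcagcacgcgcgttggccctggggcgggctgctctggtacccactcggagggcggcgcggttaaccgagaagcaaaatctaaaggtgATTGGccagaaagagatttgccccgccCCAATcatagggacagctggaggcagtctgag
Ppp1r15a: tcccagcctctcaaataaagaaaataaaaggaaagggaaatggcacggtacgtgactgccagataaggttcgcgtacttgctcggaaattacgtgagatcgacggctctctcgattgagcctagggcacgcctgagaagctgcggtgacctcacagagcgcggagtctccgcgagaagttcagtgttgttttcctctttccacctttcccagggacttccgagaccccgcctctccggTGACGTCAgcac
Ddit3: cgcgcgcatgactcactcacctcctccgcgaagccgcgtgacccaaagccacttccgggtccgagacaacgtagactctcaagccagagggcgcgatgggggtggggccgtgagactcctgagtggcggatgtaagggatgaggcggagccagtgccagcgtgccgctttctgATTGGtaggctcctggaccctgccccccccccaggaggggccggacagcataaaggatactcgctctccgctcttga
Eif2ak3: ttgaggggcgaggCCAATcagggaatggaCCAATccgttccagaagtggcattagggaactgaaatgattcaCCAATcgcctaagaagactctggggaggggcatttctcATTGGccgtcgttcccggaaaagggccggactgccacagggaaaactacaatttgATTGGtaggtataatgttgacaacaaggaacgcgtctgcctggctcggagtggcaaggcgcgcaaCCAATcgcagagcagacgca

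Among the members, TGATGCAA stood in the Chac1 window alone, from 193 to 186 bases before the start and on the opposite strand; 260 of 32851 RefSeq promoters (0.791%) held it. TGACGTCA stood in the Ppp1r15a window alone, from 12 to 5 bases before the start, and 508 promoters (1.55%) held it. CCAAT was common, in 11120 promoters (33.8%), but the Eif2ak3 window held 6 copies, as many or more of which were found in 19 promoters (0.0578%). Chac1 held 3 copies of CCAAT, Atf4 held 2, and Ddit3, Eif2ak1 and 1 of the Atf5 windows held 1. These matches describe the letters of the windows and do not show that a factor was bound.

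The array medians lay between 7.07 and 7.20 on the log2 scale of the deposited values, and arrays of 1 genotype correlated across probe sets with r from 0.992 to 0.998. Rnh1 itself read 10.39, 10.42 and 10.32 on the WT arrays, 9.75, 9.75 and 9.77 on the HET arrays and 6.28, 6.78 and 6.87 on the KO arrays, so the labels matched the targeted gene, though the KO 1 value was under the 40th percentile of that array, the level below which a gene counted as dim. The labels do not give the sex of the tissue, whether a sample was 1 yolk sac or a pool, or that replicates were separate animals, so what the p-values measure is spread among these 9 samples alone. The X-inactivation transcript Xist was high on all 3 KO arrays, on 2 of 3 WT arrays and on 1 of 3 HET arrays (HET 2), and low on WT 1, HET 1 and HET 3. The Y-linked transcript Eif2s3y was low on WT 3 (4.34) and KO 3 (4.41) and 7.27 to 8.81 on the other 7 arrays, so both transcripts were high on WT 2, HET 2, KO 1 and KO 2. Sex was thus not balanced between the genotypes. Where the Eif2s3y level as a covariate changed a member's call, its value is given. Maternal contamination was looked for with 7 decidua markers, whose mean level was 7.71 to 8.21 in WT, 7.37 to 7.95 in HET and 8.05 to 8.35 in KO (2 rose, of 6 tested), and with 8 adult blood markers, 7 of which were below the filter for dim genes on all 9 arrays. The mean of the 6 trophoblast markers with a probe set was 6.38 to 6.54 in WT, 6.12 to 6.39 in HET and 6.41 to 6.98 in KO, and 0 of 3 tested passed. These marker calls are for KO against WT, where 8.27% of all genes rose and 15.2% fell. The part of other tissue in the results was not tested.

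In KO yolk sac 2 of the 4 kinases and 2 of the 6 genes after them passed the test against WT: Ddit3 (1.30-fold) and Atf5 (1.25-fold) rose, the kinases Eif2ak3 (to 0.666 of WT) and Eif2ak2 (to 0.700 of WT) fell, and the remaining 6 members did not pass (limma, adjusted p under 0.05). Over all genes tested 23.5% passed in this comparison, 8.27% higher and 15.2% lower, so 4 members of 10 stand against a background in which changes were common. The members' median difference was 0.17, against -0.005 over all genes, and their median size of difference was 0.29, against 0.16. Against HET, Ddit3, Atf5 and Ppp1r15a rose, Eif2ak3 fell and 6 did not pass, where 21.8% of all genes passed, 8.17% higher and 13.6% lower. Both comparisons share the KO arrays. On 4 members (Ddit3, Atf4, Atf5 and Ppp1r15a) all 3 KO arrays lay above all 6 others, which was so for 12.2% of genes tested, and on 1 (Eif2ak3) all lay below, which was so for 18.7%. The number of members that passed against WT was 2 without WT 1 or WT 2. Against HET it was 2 without HET 1 or HET 2.

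**Figure D1:**
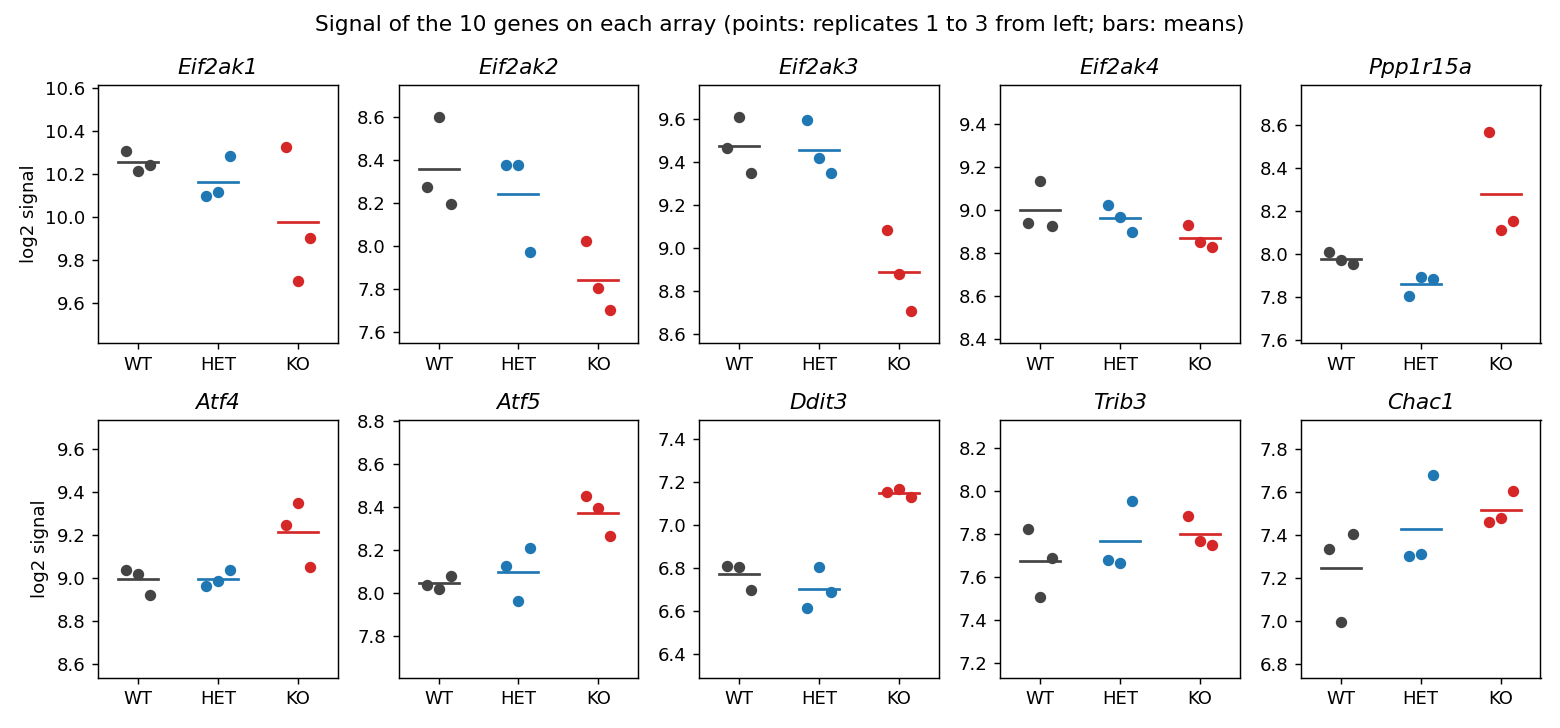
Log2 signal of the 10 members on each of the 9 arrays, by genotype, with a line at each genotype mean (3 arrays each). The 3 KO points of Ddit3 lie from 7.13 to 7.16, above all 6 others, and those of Eif2ak3 lie from 8.71 to 9.08, below all 6 others.

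Of the kinases, Eif2ak3 fell the most. It read 9.47, 9.61 and 9.35 on the WT arrays, 9.59, 9.42 and 9.35 on the HET arrays and 9.08, 8.88 and 8.71 on the KO arrays. The KO arrays lay below every other array, and the WT and HET arrays covered the same range. The difference was -0.59 ± 0.11 (SE, limma adjusted p = 0.00691) from WT and -0.57 ± 0.11 (limma adjusted p = 0.00825) from HET, and both passed under each of 22 alternative settings, with adjusted p-values up to 0.0279 and 0.0375. In bulk tissue, fewer cells of a type and less RNA per cell cannot be told apart, and the 10 visceral endoderm markers moved with Eif2ak3: their mean level was 12.48 to 12.59 in WT, 12.46 to 12.62 in HET and 12.09 to 12.27 in KO, and 4 of the 10 fell. The marker calls are against WT, where 15.2% of all genes fell. The markers' part in the fall of Eif2ak3 was not tested.

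Eif2ak2, the kinase of double-stranded RNA, read 8.28, 8.60 and 8.20 on the WT arrays, 8.38, 8.38 and 7.97 on the HET arrays and 8.03, 7.81 and 7.70 on the KO arrays. All KO arrays lay below all WT arrays, but KO 1 lay above HET 3. Its difference from WT was -0.51 ± 0.14 (limma adjusted p = 0.0327), and the call was lost without WT 1 (0.0667), WT 2 (0.105), KO 2 (0.0878) or KO 3 (0.0944). From HET the difference of -0.40 ± 0.14 did not pass (limma adjusted p = 0.0804). It did pass without HET 3 (0.0317) and without WT 2 and KO 1 together (0.0285). It also passed with quantile normalization (0.0341), array weights (0.00981) and the replicate number as a block (0.0338). The macrophage markers, which stand for a blood cell of the yolk sac, also lay lower in KO: the mean of 9 was 6.88 to 7.00 in WT, 6.93 to 7.08 in HET and 6.65 to 6.73 in KO, 3 of 5 tested fell, and Ptprc, C1qb, C1qc and Adgre1 were below the filter on every array. The marker calls are against WT, where 15.2% of all genes fell. The markers' part in the level of Eif2ak2 was not tested.

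Eif2ak1, the heme-regulated kinase, read 10.31, 10.21 and 10.24 on the WT arrays, 10.10, 10.12 and 10.28 on the HET arrays and 10.33, 9.71 and 9.90 on the KO arrays. The KO arrays were split: KO 1 was the highest of all 9, and KO 2 and KO 3 were the lowest. The difference from WT of -0.28 ± 0.14 did not pass (limma adjusted p = 0.171, 95% interval -0.59 to 0.03), but without KO 1 it was -0.45 (0.00795), and from HET -0.36 (0.0187). Without KO 2 the differences were -0.14 (0.467) and -0.051 (0.817). The mean level of 9 erythroid markers was split in the same way, at 11.07 in KO 1 and 10.55 and 10.61 in KO 2 and KO 3, against 11.05 to 11.27 in WT and 10.96 to 11.32 in HET, and 4 of the 9 fell against WT. Of all genes, 15.2% fell against WT. The markers' part in the level of Eif2ak1 was not tested.

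Eif2ak4, the sensor of uncharged tRNA, read 8.94, 9.14 and 8.92 on the WT arrays, 9.02, 8.97 and 8.90 on the HET arrays and 8.93, 8.85 and 8.83 on the KO arrays. Its groups overlapped, and the difference from WT was -0.13 ± 0.07 (limma adjusted p = 0.213, 95% interval -0.29 to 0.03). Under all 22 settings the difference of each of the 4 kinases from WT and from HET was below 0.

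**Figure D2:**
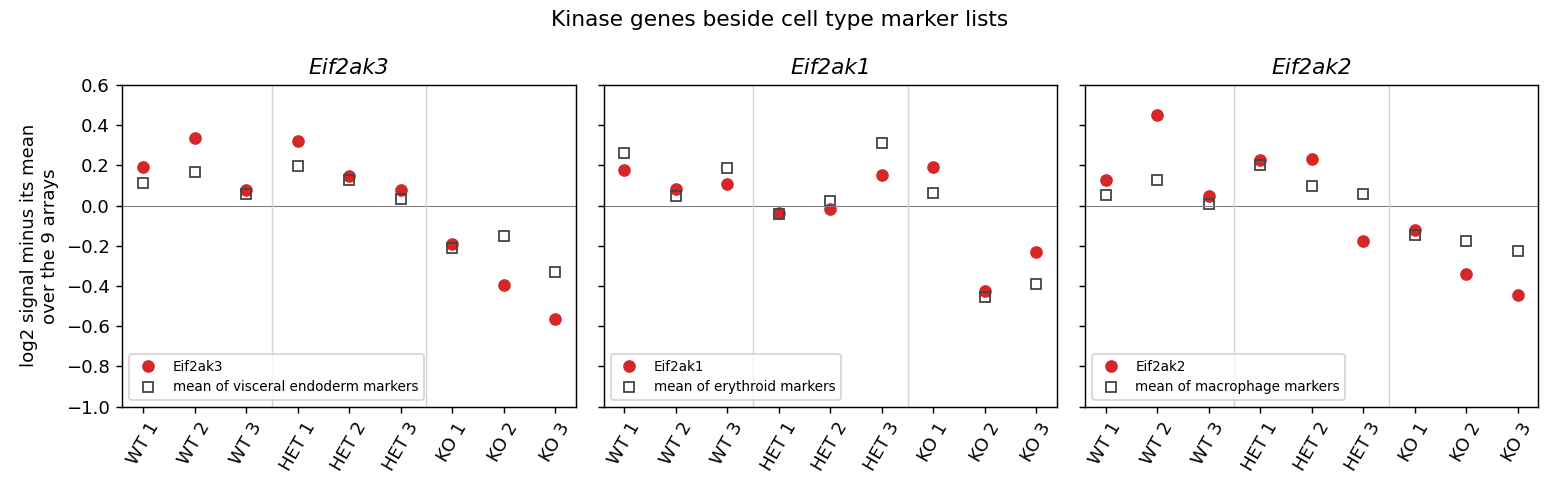
Log2 signal of Eif2ak3, Eif2ak1 and Eif2ak2 (circles) and the mean log2 signal of a cell type marker list (squares) on each of the 9 arrays, both as the difference from their own mean over the 9 arrays. Before that centring, Eif2ak1 and the erythroid mean are both higher in KO 1 (10.33 and 11.07) than in KO 2 (9.71 and 10.55) and KO 3 (9.90 and 10.61).

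Ddit3, the transcription factor CHOP, which is associated with prolonged stress and cell death, was the steadiest riser among the members. It read 6.81, 6.80 and 6.70 on the WT arrays, 6.61, 6.80 and 6.69 on the HET arrays and 7.15, 7.16 and 7.13 on the KO arrays. The KO arrays lay close together and above all others, and all 9 values were above the filter, between the 40th percentile (6.35 to 6.57) and about the median (7.07 to 7.20) of the arrays. The rise was 0.38 ± 0.06 (limma adjusted p = 0.00451) from WT and 0.45 ± 0.06 (limma adjusted p = 0.00237) from HET, and both passed under each of the 21 settings that tested it. A filter at the array median left Ddit3 untested.

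Atf4, the factor through which the kinases act, read 9.03, 9.02 and 8.92 on the WT arrays, 8.96, 8.98 and 9.03 on the HET arrays and 9.24, 9.35 and 9.05 on the KO arrays. Every KO array lay above every other array, but KO 3 by little. The difference of 0.22 ± 0.08 from WT (1.17-fold, 95% interval 0.04 to 0.40) missed the threshold (limma adjusted p = 0.0728), as did that from HET (0.22 ± 0.08, adjusted p = 0.0774). Without KO 3 both passed, at 0.30 (0.0188) and 0.30 (0.0190). Against WT it also passed with quantile normalization (0.27, 0.0426), cyclic loess (0.26, 0.0424) and array weights (0.22, 0.0189), and against HET with array weights (0.27, 0.0252). With Eif2s3y as a covariate the difference from WT was 0.25 (0.0335) and that from HET 0.30 (0.0360).

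Atf5, a factor of the same family that is also translated under stress, read 8.04, 8.02 and 8.08 on the WT arrays, 8.13, 7.96 and 8.21 on the HET arrays and 8.45, 8.39 and 8.27 on the KO arrays. KO lay above the rest without overlap, with KO 3 just above HET 3. It rose by 0.33 ± 0.08 from WT (limma adjusted p = 0.0169) and 0.27 ± 0.08 from HET (limma adjusted p = 0.0358). Without WT 2 and KO 1 together the call was lost against WT (0.0768) and against HET (0.0852). Against WT the call was also lost without WT 1 (0.0600) or WT 2 (0.0555). Against HET it was lost without WT 1 (0.0632), WT 3 (0.0536), HET 1 (0.0842), HET 2 (0.117), KO 1 (0.0765) or KO 2 (0.0877), with the replicate number as a block (0.0519), with Eif2s3y as a covariate (0.0638), without the filter on dim genes (0.0570), with centred arrays (0.0666) and with only the KO and HET arrays in the fit (0.0837).

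Ppp1r15a, which ends the response by restoring eIF2, read 8.01, 7.97 and 7.95 on the WT arrays, 7.80, 7.89 and 7.89 on the HET arrays and 8.57, 8.11 and 8.15 on the KO arrays. KO lay above both other genotypes, KO 1 well above the other two KO arrays, and HET lay below WT. The difference from WT was 0.30 ± 0.11 (limma adjusted p = 0.0780, 95% interval 0.05 to 0.55) and did not pass, and without KO 1 it was 0.15. From HET it rose by 0.42 ± 0.11 (limma adjusted p = 0.0263), a call lost without HET 1 (0.0906), HET 2 (0.0675) or HET 3 (0.0571) with each array centred on its median (0.0538) or with only the KO and HET arrays in the fit (0.0648). Without KO 1 it was 0.27 (0.0120).

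Trib3 and Chac1, often read as reporters of Atf4 activity, did not pass in any comparison. Trib3 read 7.83, 7.51 and 7.69 on the WT arrays, 7.68, 7.67 and 7.96 on the HET arrays and 7.89, 7.77 and 7.75 on the KO arrays, with overlapping groups. Its difference from WT was 0.13 ± 0.10 (limma adjusted p = 0.394), and the 95% interval of its fold change ran from 0.929 to 1.28. Chac1, whose promoter is shown above with the composite element, read 7.34, 7.00 and 7.41 on the WT arrays, 7.30, 7.31 and 7.68 on the HET arrays and 7.46, 7.48 and 7.61 on the KO arrays. Its KO arrays lay above all WT arrays, yet HET 3 was the highest of all. The difference from WT was 0.27 ± 0.13 (limma adjusted p = 0.162, fold interval 0.983 to 1.48), 0.14 without WT 2, and that from HET was 0.09 ± 0.13 (limma adjusted p = 0.699).

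**Figure D3:**
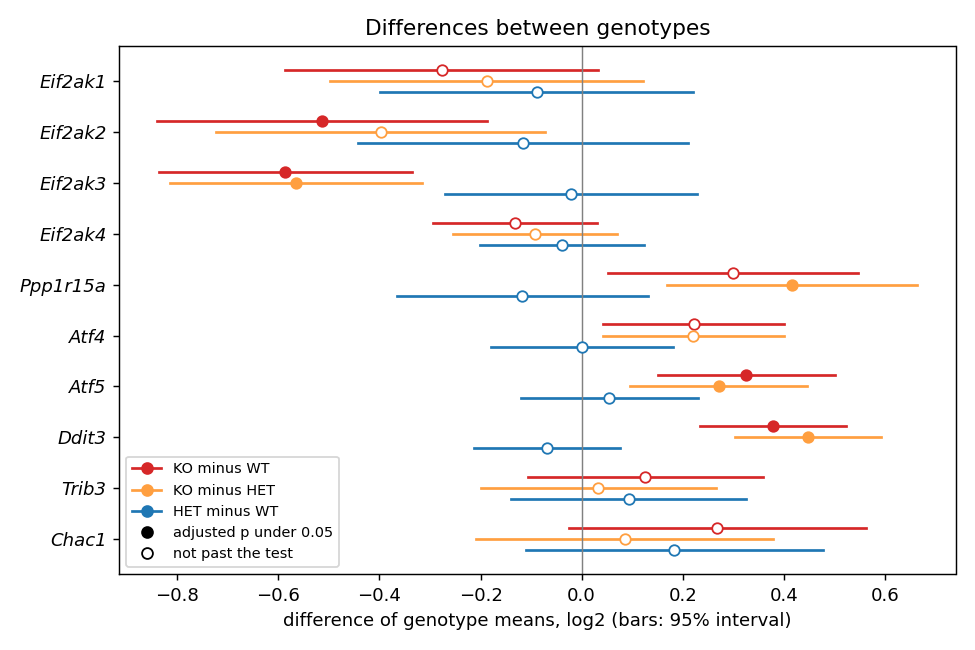
Log2 difference of each member with its 95% interval from limma, for KO against WT, KO against HET and HET against WT. The KO intervals of Ddit3, Atf5, Atf4 and Ppp1r15a lie above 0 and those of Eif2ak3 and Eif2ak2 below 0 against both WT and HET, though not all passed after adjustment (filled points passed), and the HET against WT intervals all include 0.

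Loss of 1 Rnh1 copy gave no call, not even for Rnh1. All HET arrays of Rnh1 lay below all WT arrays, at 0.649 of WT, but it did not pass (limma adjusted p = 0.939). A difference of that size could thus go uncalled in this comparison. Between HET and WT 0 of 10 members and 0% of all genes passed limma's test. An unadjusted p under 0.05 was found for 0 members and for 327 of the 13207 genes tested, a share below 0.05. The members' median difference was -0.03, and the interval of the largest, Chac1 at 0.18, included 0. The comparison shares the WT arrays with KO against WT.

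Around the kinases, 22 genes were listed that encode subunits of eIF2 and of its exchange factor eIF2B, phosphatase subunits and direct regulators of the kinases. Of 21 tested, 0 rose, 3 fell and 18 did not pass against WT (14.3% passed, against 23.5% of all genes; median -0.07), and the same numbers held against HET. Impact, which holds back Eif2ak4, read 11.11, 11.24 and 11.10 on the WT arrays, 11.32, 11.09 and 11.12 on the HET arrays and 10.69, 10.82 and 10.73 on the KO arrays, below all others, and fell by 0.40 ± 0.08 (limma adjusted p = 0.00678). Oma1, the mitochondrial protease that starts the signal to Eif2ak1, fell by 0.39 ± 0.09 (limma adjusted p = 0.0133). Eif2b3, a subunit of eIF2B, fell by 0.25 ± 0.06 (limma adjusted p = 0.0167). That call was lost without WT 1 (0.0631) or WT 3 (0.0515) and without WT 2 and KO 1 together (0.0501). It was also lost with quantile normalization (0.108) and with cyclic loess (0.0859). Without KO 1 the number that passed was 7. Hspa5 (BiP), the chaperone that keeps Eif2ak3 inactive, differed from WT by -0.05 ± 0.05 (limma adjusted p = 0.444).

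Known targets of Atf4 did not move as a block. Of 40 listed genes 35 were tested, and against WT 7 rose, 11 fell and 17 did not pass (51.4% passed, against 23.5% of all genes; median -0.08). Against HET 0 rose, 8 fell and 27 did not pass (22.9% passed, against 21.8%). The rises against WT were not steady: their number was 3 without WT 1, 1 without WT 2, WT 3 or KO 2, 2 without HET 1 or HET 2, and 4 without KO 3, and with only the WT and KO arrays in the fit it was 0. With the arrays centred on their medians, or without the filter on dim genes, 2 rose. The falls numbered 6 without WT 1 and 7 without WT 2.

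Rises and falls lay in different function groups, which were made after the values were seen. Of the list, 5 of 9 genes of amino acid synthesis fell and 0 rose against WT (median -0.29), where 15.2% of all genes fell and 8.27% rose. Against HET again 5 fell and 0 rose, where 13.6% of all genes fell and 8.17% rose. Aldh18a1, which starts proline synthesis, read 11.57, 11.60 and 11.50 on the WT arrays, 11.60, 11.64 and 11.61 on the HET arrays and 10.90, 11.12 and 11.02 on the KO arrays. The KO arrays lay below all others, and Aldh18a1 fell by 0.54 ± 0.07 (limma adjusted p = 0.00166) from WT. Psat1, of serine synthesis, fell by 0.41 ± 0.06 (limma adjusted p = 0.00300), and Gpt2, which makes alanine, fell by 0.57 ± 0.10 (limma adjusted p = 0.00539). These 3 genes fell from WT and from HET under all 22 settings. Asns, which makes asparagine and is a classic Atf4 target, differed from WT by -0.12 ± 0.09 (limma adjusted p = 0.363). Without WT 1, WT 2, WT 3 or KO 3, with quantile normalization, or with only the WT and KO arrays in the fit, 3 synthesis genes fell.

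Of 10 genes for tRNA charging, 6 fell and 0 rose against WT, all 10 differences were below 0 (median -0.22), and 3 fell against HET; of all genes, 15.2% fell against WT and 13.6% against HET. The deposited annotation names them, except Mars1, by older symbols. Yars, for tyrosine, read 11.03, 11.11 and 11.00 on the WT arrays, 11.08, 11.18 and 11.00 on the HET arrays and 10.55, 10.73 and 10.68 on the KO arrays, and fell by 0.39 ± 0.07 (limma adjusted p = 0.00578), with KO below all others. Nars, for asparagine, fell by 0.29 ± 0.06 (limma adjusted p = 0.00857) and Sars, for serine, by 0.27 ± 0.06 (limma adjusted p = 0.0135). Sars lost its call without WT 2 and KO 1 together (0.0544). Without WT 1, or without WT 2 and KO 1 together, the number that fell was 3.

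The stress and feedback genes leaned the other way. Of 10 tested 5 rose and 0 fell against WT, with 9 differences above 0 (median 0.29), where 8.27% of all genes rose. Against HET 0 rose, where 8.17% of all genes did, with 9 differences above 0 (median 0.21). Ddit4, an inhibitor of mTORC1 named after its value was seen, rose the most, by 0.84 (limma adjusted p = 0.0201), but not without WT 2 (0.0706). Its companions, also named after their values were seen, were Nupr1 (0.38, limma adjusted p = 0.0332), Sesn2 (0.31, 0.0335), Stc2 (0.27, 0.0442) and Atf3 (0.33, 0.04996), and each lost its call without at least 1 of the WT arrays. The group's number was 2 without WT 1, HET 1 or HET 2, 1 without WT 2, WT 3 or KO 2, and 3 without KO 3. It was 2 with centred arrays, without the filter on dim genes or without WT 2 and KO 1 together, 3 with Eif2s3y as a covariate and 0 with only the WT and KO arrays in the fit. Of 6 amino acid transporters 2 rose and 0 fell against WT, where 8.27% of all genes rose and 15.2% fell. Their differences from WT lay above 0 for 3 and below 0 for 3 (median 0.03). The largest was that of Slc6a9, named after its value was seen (-0.56, limma adjusted p = 0.0847), which did not pass. Against HET 0 of the 6 rose, where 8.17% of all genes did. The 2 that rose against WT were Slc7a3 (0.41, limma adjusted p = 0.0455) and Slc7a5 (0.20, limma adjusted p = 0.0481). Slc7a3 and Nupr1 lay near the filter for dim genes, which was 6.35 to 6.57 across the arrays. Slc7a3 had a mean of 6.58 in WT and 6.98 in KO, and Nupr1 6.69 and 7.07. Slc7a3 lay nearly as far above WT in HET (0.39, not past the test), and KO differed from HET by 0.018. Without WT 2, WT 3, HET 1, HET 2, KO 2 or KO 3 neither transporter passed, and 1 passed without WT 1, HET 3 or KO 1. Neither passed without the filter on dim genes, with centred arrays, with only the WT and KO arrays in the fit, with the replicate block or with Eif2s3y as a covariate.

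**Figure D4:**
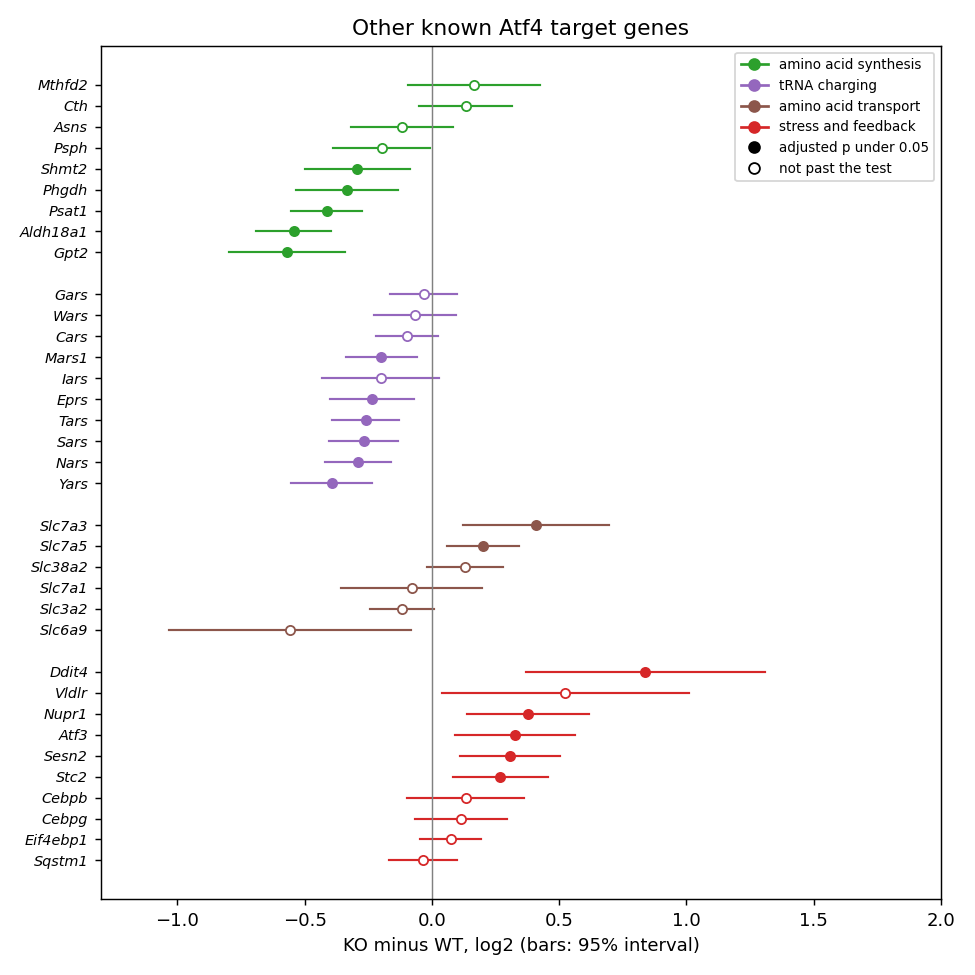
Log2 difference of KO from WT for the 35 tested Atf4 targets, by function group, with genes past limma's test filled. All 10 genes for tRNA charging lie below 0 and 9 of 10 stress and feedback genes lie above 0.

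The other arms of the unfolded protein response run through Ern1 (IRE1) with Xbp1 and through Atf6. Their genes passed about as often as genes at large, but every call against WT was a fall. Of all genes, 15.2% fell and 8.27% rose against WT, and 13.6% fell and 8.17% rose against HET. Of 28 genes tested, 0 rose, 7 fell and 21 did not pass against WT (25% passed, against 23.5% of all genes; median -0.11), and against HET 1 rose, 7 fell and 20 did not pass (28.6%, against 21.8%). Xbp1 read 11.87, 11.99 and 11.87 on the WT arrays, 11.99, 11.94 and 11.89 on the HET arrays and 11.30, 11.56 and 11.38 on the KO arrays, below all others, and fell by 0.50 ± 0.08 (limma adjusted p = 0.00331). Sel1l, a part of the machinery that removes misfolded protein, fell by 0.60 ± 0.06 (limma adjusted p = 0.00103). Edem2 and Derl2, of the same machinery, fell by 0.27 ± 0.06 (limma adjusted p = 0.0112) and 0.36 ± 0.08 (limma adjusted p = 0.0124). With quantile normalization Edem2 lost its call (0.0513). The disulfide isomerase Pdia4 fell by 0.33 ± 0.06 (limma adjusted p = 0.00470). Its difference from HET was -0.20 (limma adjusted p = 0.0338), a call lost under 15 of 22 settings. With the mean of its probe sets that difference was -0.061 (0.458). Atf6 fell by 0.30 ± 0.07 (limma adjusted p = 0.0192). That call was lost without WT 1 (0.0532) or WT 2 (0.0668) and without WT 2 and KO 1 together (0.0670). The remaining fall was the chaperone Dnajb9 (-0.34). Ern1 differed by 0.03 ± 0.07 (limma adjusted p = 0.746). The single rise against HET was Atf6b (0.24, limma adjusted p = 0.0495), and both it and Dnajb9 were named after their values were seen. Against HET the total was 5 without WT 1, WT 3, HET 3 or KO 2, 4 without HET 1 and 3 without HET 2. The array does not tell spliced from unspliced Xbp1. The visceral endoderm markers, given above, were lower in KO as well, and their part was not tested.

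Interferon response genes were read because Eif2ak2 is one of them. Of 28 listed, 24 had a probe set and 12 were bright enough to test. Against both WT and HET 1 rose and 2 fell (25% passed, against 23.5% and 21.8% of all genes; median against WT 0.03). The gene that rose was Adar, an editor of double-stranded RNA, at 7.72, 7.80 and 7.93 on the WT arrays, 7.86, 7.93 and 7.93 on the HET arrays and 8.32, 8.10 and 8.12 on the KO arrays, above all others. Its rise was 0.36 ± 0.08 from WT (limma adjusted p = 0.0121), lost without WT 1 (0.0535). Rsad2 (viperin) fell by 0.73 ± 0.17 (limma adjusted p = 0.0162), lost without WT 2 (0.0533) or KO 2 (0.0546). Ifi35 fell by 0.32 ± 0.08 (limma adjusted p = 0.0192), lost without WT 1 (0.0728). Without WT 2 and KO 1 together Rsad2 (0.0797) and Ifi35 (0.0501) both lost their call. Against HET the number that passed was 1 without HET 1, KO 1 or KO 3 and 0 without HET 2.

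The endothelial and mesoderm marker levels are given for the remaining tissue layers. The mean of 8 endothelial markers was 9.74 to 9.88 in WT, 9.64 to 9.86 in HET and 9.65 to 9.71 in KO, and 2 fell. The mean of 8 mesoderm markers was 10.05 to 10.16 in WT, 10.03 to 10.07 in HET and 10.26 to 10.36 in KO, above all others, and 4 rose and 1 fell against WT. Of all genes, 8.27% rose and 15.2% fell against WT. The mean of the mesoderm list moved in the same direction as Ddit3, Atf5 and the stress and feedback genes. The list's part in their levels was not tested.

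Patterns over the 9 arrays were compared by root mean square difference of log2 values centred on each gene's mean. Symbols that start with Gm and a digit, LOC, Olfr, Vmn, Mir or Snor, or contain Rik, were passed over. Of the other genes tested, the nearest to Eif2ak3 were Vil1 (0.0345), Fmr1nb (0.0390) and Myorg (0.0479). Vil1, which encodes villin of the microvilli of absorptive epithelium, stood at 10.72, 10.55 and 10.28 in KO, against 10.94 to 11.16 in WT and 10.95 to 11.19 in HET. Nearest to Atf4 were Zfp276 (0.0387), Lime1 (0.0412) and Ppp2r5b (0.0435).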

How the data were processed

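Yolk sac RNA of 9 samples (3 per genotype) was measured on 1 array each, from 100 ng of total RNA per the labels' protocols. Per the submitters' processing notes, the authors used RMA and Affymetrix Expression Console 1.2.1.20, and the deposited unit is a log2 signal for each probe set. Which genome build the array annotation follows is not given in the sources.

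Of 28350 probe sets, 21780 name 1 gene symbol. The brightest per gene was kept. Genes above the 40th percentile of their array on at least 3 arrays were tested. With limma 3.58.1 (R 4.3.3), 1 model of all 9 arrays with genotype as the factor was fitted, with empirical Bayes moderation and Benjamini-Hochberg adjustment over the 13207 genes, at 0.05. Intervals are limma's 95% intervals, unadjusted. The script was tested on simulated data.

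Members, the 4 pathway lists and 8 marker lists were chosen with earlier results of these data known. From each pathway list, up to 6 genes that passed against WT, by unadjusted p, were named, and for Eif2ak3 and Atf4 the 3 nearest genes. Function groups of the Atf4 targets were made after the values were seen. Alternatives were 2 filters, the mean of probe sets, 3 normalizations, another prior, array weights (which stopped before convergence), fewer arrays, the replicate block, Eif2s3y as a covariate, each array left out, and a looser threshold of 0.1. The number of arrays limits the precision.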

Additional observations from a re-analysis of the deposited data

How the results depend on the processing

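The falls of Rnh1 and Eif2ak3 in KO and, where tested, the rise of Ddit3 in KO passed against WT and against HET under every setting run. Counts of members, all genes and pathway lists that moved by more than 1.5 times follow, and the cause was not tested unless given. Against WT, the members that rose numbered 1 with a filter at the array median, which left Ddit3 untested. They numbered 1 without WT 2 and KO 1 together and 4 at an adjusted p under 0.1. Against HET, 2 members passed with centred arrays or with only the genotypes compared (1 rose in each). The members that fell against HET numbered 2 with quantile normalization, array weights, the replicate block or an adjusted p under 0.1, and 3 without WT 2 and KO 1 together. With each array left out in turn, 2 to 5 members passed against WT (1 to 3 rose, 1 to 3 fell) and 2 to 5 against HET (1 to 4 rose, 1 to 2 fell).

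Over all genes 3101 passed against WT (1092 higher, 2009 lower), and with array weights 5753 did (2354 higher, 3399 lower). Genes higher against WT numbered 577 with centred arrays, 675 with only the genotypes compared and 1653 at an adjusted p under 0.1. Against HET 2875 passed, and with Eif2s3y as a covariate 1739 did. Between HET and WT 6 passed with array weights and 4 without WT 2 and KO 1 together. With each array left out, 1672 to 3821 genes passed against WT (515 to 1395 higher, 1141 to 2426 lower), 1514 to 3137 against HET and 0 to 5 between HET and WT.

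Of the genes around eIF2, 5 passed against WT with a filter at the array median, quantile normalization or Eif2s3y as a covariate, 6 with centred arrays or the trended prior, 10 with array weights and 9 at an adjusted p under 0.1 (2 to 7 with an array left out). Against HET 5 passed with array weights, without WT 2 and KO 1 together or at an adjusted p under 0.1 (2 to 4 with an array left out). Of the Atf4 targets, 10 passed against WT without a filter or without WT 2 and KO 1 together and 7 with only the genotypes compared (8 to 16 with an array left out). The targets that rose numbered 2 without a filter, with centred arrays or without WT 2 and KO 1 together, 0 with only the genotypes compared and 3 with Eif2s3y as a covariate (1 to 5 with an array left out), and those that fell numbered 7 with quantile normalization or only the genotypes compared (6 to 11 with an array left out). Against HET 16 targets passed with array weights, 13 without WT 2 and KO 1 together and 17 at an adjusted p under 0.1 (7 to 14 with an array left out). Of the other arms of the unfolded protein response, 11 passed against WT with the trended prior or array weights (5 to 8 with an array left out), and against HET 5 without a filter and 4 with only the genotypes compared or Eif2s3y as a covariate (3 to 6 with an array left out). Of the interferon genes, 1 passed against WT without WT 2 and KO 1 together (1 to 3 with an array left out), and 1 against HET without a filter, with only the genotypes compared, without WT 2 and KO 1 together or with Eif2s3y as a covariate (0 to 3 with an array left out).

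Differences near 0 changed sign, none of them past the test. Between HET and WT, Eif2ak2 was 0.039 with array weights and 0.0048 without WT 2 and KO 1 together (-0.20 to 0.019 with an array left out). Eif2ak3 was 0.0051 with quantile normalization, 0.010 with cyclic loess, 0.029 with array weights and 0.047 without WT 2 and KO 1 together (-0.091 to 0.047 with an array left out). Eif2ak4 was 0.041 with array weights and 0.029 without WT 2 and KO 1 together (-0.076 to 0.029 with an array left out). Atf4 was -0.040 with centred arrays, -0.054 with array weights and -0.052 with Eif2s3y as a covariate (-0.035 to 0.023 with an array left out). Atf5 ran from -0.00072 to 0.12 and Trib3 from -0.00088 to 0.17 with an array left out, and Trib3 was -0.10 with array weights. Against WT, Trib3 was -0.044 with array weights. Against HET, it was -0.0091 without WT 2 and KO 1 together (-0.017 to 0.13 with an array left out).

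Whether the replicate numbers pair the arrays could not be decided. Over 9 same-numbered pairs the correlation of deviations ran from -0.257 to 0.425, and 5 exceeded 0.1. Over differently numbered pairs it ran from -0.590 to 0.413, a range that overlaps. With the replicate block Atf5 against HET had an adjusted p of 0.0519 and Eif2ak2 against HET 0.0338 in limma, and Eif2ak3 and Ddit3 passed in both comparisons. The array weights fit stopped before convergence. The filter left 12 of 24 interferon genes untested; without a filter 3 of the list passed against WT and 1 against HET.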
